A study of Homo sapiens with 16 samples.

Results

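TRIM28 binding was compared between shARID1A and unmodified HCT116 cells, an established human colon cancer line, from the ChIP-seq peak lists of 1 TRIM28 library per side. These 2 libraries, of 16 samples in the series, were chosen because the pair does not use the shCtrl library, and their 4 peak lists (each library called against input and against IgG) were taken from 20. The shARID1A cells carry, by their label, a short hairpin RNA against ARID1A, the AT-rich DNA-binding subunit of the SWI/SNF remodelling complex, and the unmodified cells have no hairpin named in their label. The labels give no hairpin sequence, vector, clone or time after transduction. The cells are thus compared with parental cells and not with cells that carry a control hairpin, and an effect of carrying a hairpin cannot be told apart from one of less ARID1A. ARID1A protein was not measured here. No group has a second library, so no difference below has a replicate check, no p-value is given, and intervals are exact or Newcombe 95% intervals that cover counting error only.

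TRIM28 (also KAP1 or TIF1β) is a corepressor that does not bind DNA itself. KRAB zinc finger proteins bring it to their target sequences, many of them in transposable elements, and it in turn recruits SETDB1, which methylates histone H3 to give H3K9me3, the mark of constitutive heterochromatin. In human cells TRIM28 and H3K9me3 are known to lie over the 3′ ends of zinc finger genes, over imprinted regions and over silenced retroviral elements. The series asks how ARID1A relates to this machinery.

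The shARID1A list was the longer one against either control. Against input it held 203714 peaks on chromosomes 1 to 22 and X, against 32927 in unmodified cells, a log2 ratio of 2.63. Against IgG it held 281182 peaks, against 68047, a log2 ratio of 2.05. The peaks covered 56.3 Mb in shARID1A and 11.3 Mb in unmodified cells (input), with a median width of 231 bp and 310 bp. The deposited fold enrichment, the authors' ratio of summit pileup to local background, averaged 2.55 in shARID1A and 2.45 in unmodified cells. Most peaks were weak calls: 81.6% of the shARID1A peaks and 99.3% of the unmodified peaks had a q of 1. Peaks that passed a q of 0.05 are called strong here. They numbered 2119 in shARID1A and 67 in unmodified cells against input, and 3776 and 396 against IgG. Of the input peaks, 59.6% in shARID1A and 38.4% in unmodified cells overlapped a peak of the same library called against IgG. The 2 libraries were also called at unlike depth. Fold and p of 400 sampled peaks per list gave a median of 5 fragments at the summit in shARID1A and 10 in unmodified cells (input). The most common background was 5.59 and 8.46 per kb, in fragments scaled by 1 in shARID1A and by 0.739 in unmodified cells. The unscaled unmodified background was thus above 8.46 per kb, and that value is not in the unit of its summit count. The part of depth in the peak numbers was not tested.

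Promoters with many CpG dinucleotides held TRIM28 peaks in the shARID1A library and seldom in the unmodified one. The window searched ran from 250 bases before to 50 after the start site and was found in a RefSeq table (GRCh38.p14) for 15811 of 19970 protein-coding genes. A peak against input overlapped it for 2178 genes in shARID1A (13.8% of all windows) and for 124 in unmodified cells (0.784%). Of all peaks, 1.00% lay at a promoter in shARID1A, which was 3.18 times the shifted share (the same list moved along the chromosomes), and 0.340% in unmodified cells, 1.09 times the shifted share. Strong shARID1A peaks lay there in 5.47% of cases, 12.9 times the shifted share. No strong unmodified peak did, 0 of 67, with an approximate upper limit of 4.48% (3 of 67, not an exact interval). Their shifted share was also 0, and 60 of the 67 lay over 100 kb from any annotated gene, so they give no contrast with the strong shARID1A peaks.

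The promoter windows below are examples taken by rank. NDEL1, a regulator of the dynein motor, DSN1, a kinetochore subunit, and SAFB2, a scaffold attachment factor, are the protein-coding genes among the 12 highest strong shARID1A regions (named by rule, in both shARID1A lists and neither unmodified list) whose peak lay at a start site. GOLGA5, a Golgi tethering protein, is the same among the 12 highest regions found in all 4 lists. FAM230E, a long noncoding RNA gene, is the one at a start site among the 12 highest regions listed in unmodified cells alone. LOC105372952, a long noncoding RNA gene among the strong shARID1A regions, also had its peak at a start site (fold 5.92 against input) and is not printed. Each is printed 5′ to 3′ from RefSeq, GRCh38.p14, on the strand of the gene, with every CG in capitals. The windows are NDEL1 at chr17:8435634-8435933 (plus strand), DSN1 at chr20:36773714-36774013 (minus), SAFB2 at chr19:5622727-5623026 (minus), GOLGA5 at chr14:92794055-92794354 (plus) and FAM230E at chr22:18733685-18733984 (plus).
NDEL1: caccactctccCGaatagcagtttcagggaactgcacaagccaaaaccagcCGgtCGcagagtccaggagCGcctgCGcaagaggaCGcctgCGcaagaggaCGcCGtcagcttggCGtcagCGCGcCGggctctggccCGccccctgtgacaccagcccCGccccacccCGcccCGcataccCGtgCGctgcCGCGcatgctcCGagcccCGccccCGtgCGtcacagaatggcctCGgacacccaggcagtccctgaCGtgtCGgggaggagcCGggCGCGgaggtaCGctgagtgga
DSN1: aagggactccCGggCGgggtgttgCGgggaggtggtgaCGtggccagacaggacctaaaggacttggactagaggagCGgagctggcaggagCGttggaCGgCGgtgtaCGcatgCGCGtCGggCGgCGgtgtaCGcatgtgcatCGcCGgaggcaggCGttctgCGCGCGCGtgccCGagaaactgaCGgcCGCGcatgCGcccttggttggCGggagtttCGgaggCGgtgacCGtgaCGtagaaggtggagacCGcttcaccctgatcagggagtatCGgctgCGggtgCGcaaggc
SAFB2: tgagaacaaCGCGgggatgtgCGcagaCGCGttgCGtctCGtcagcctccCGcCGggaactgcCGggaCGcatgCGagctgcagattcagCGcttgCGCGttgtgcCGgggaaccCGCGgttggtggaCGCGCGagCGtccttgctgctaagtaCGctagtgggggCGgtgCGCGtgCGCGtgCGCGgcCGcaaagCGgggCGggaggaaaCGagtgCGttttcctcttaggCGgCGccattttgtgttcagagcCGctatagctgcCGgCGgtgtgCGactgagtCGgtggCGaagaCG
GOLGA5: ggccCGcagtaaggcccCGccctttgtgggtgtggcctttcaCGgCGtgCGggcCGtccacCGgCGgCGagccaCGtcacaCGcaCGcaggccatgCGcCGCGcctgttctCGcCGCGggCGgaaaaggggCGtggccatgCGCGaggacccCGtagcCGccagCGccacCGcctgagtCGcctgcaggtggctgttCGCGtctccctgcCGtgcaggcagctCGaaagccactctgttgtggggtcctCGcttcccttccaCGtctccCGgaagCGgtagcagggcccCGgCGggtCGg
FAM230E: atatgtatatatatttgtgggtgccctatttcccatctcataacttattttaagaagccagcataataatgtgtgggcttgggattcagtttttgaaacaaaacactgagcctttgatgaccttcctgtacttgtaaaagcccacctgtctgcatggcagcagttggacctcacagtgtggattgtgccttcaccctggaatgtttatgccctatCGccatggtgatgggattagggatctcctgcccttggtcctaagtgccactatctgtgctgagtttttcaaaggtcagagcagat

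The only motif searched was CG, which reads the same on both strands, and 98.1% of all protein-coding promoter windows hold at least 1, with a median of 22 per window. NDEL1 holds 32, DSN1 36, SAFB2 44 and GOLGA5 38, and the shares of all windows with at least as many are 25.4%, 17.0%, 5.57% and 13.2%. FAM230E holds 1. The NDEL1 peak (chr17:8435589-8435914, hg38) had a fold of 6.77 against input and 7.06 against IgG in shARID1A, and no unmodified TRIM28 peak overlapped it. The DSN1 peak (chr20:36773702-36773963) had a fold of 6.70 and 9.41 in shARID1A against these controls, and the SAFB2 peak (chr19:5622446-5623103) a fold of 6.04 and 6.59, again with no unmodified peak. At GOLGA5 the shARID1A peak (chr14:92793237-92794233) had a fold of 5.43 against input and 4.58 against IgG, and the unmodified peaks there a fold of 3.13 and 2.97. The FAM230E peak (chr22:18733682-18734009), chosen from the regions of unmodified cells alone, had a fold of 4.11 and 4.06 there and no shARID1A peak.

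Over all windows the pattern followed CpG content. Windows with a peak held a median of 32 CG in shARID1A and 18.5 in unmodified cells. Across 5 equal classes of windows by CG number, the share with a peak against input ran in shARID1A from 2.75% in the lowest class over 4.87%, 12.3% and 20.7% to 28.3% in the highest. In unmodified cells it was 0.854%, 0.980%, 1.14%, 0.664% and 0.285% over the same classes. Called against IgG, the shARID1A shares were 6.51%, 23.4%, 46.1%, 50.5% and 47.3%, and the unmodified ones lay between 1.52% and 2.50%. With that control the shARID1A share was highest, at 50.5%, in the class just below the top. Promoters with a peak against IgG numbered 5496 in shARID1A (34.8% of windows) and 296 in unmodified cells (1.87%). Among the libraries of shARID1A cells, taken to share 1 input, SETDB1 peaks also met more windows with each class, from 0.664% to 21.0%. H3K9me3 peaks did not, with 1.17%, 8.13%, 15.4%, 12.05% and 3.45%, and TRIM28 of shCtrl cells ran from 1.80% in the lowest class to 0 in the highest. The part of the control in the pattern was not tested.

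**Figure D1:**
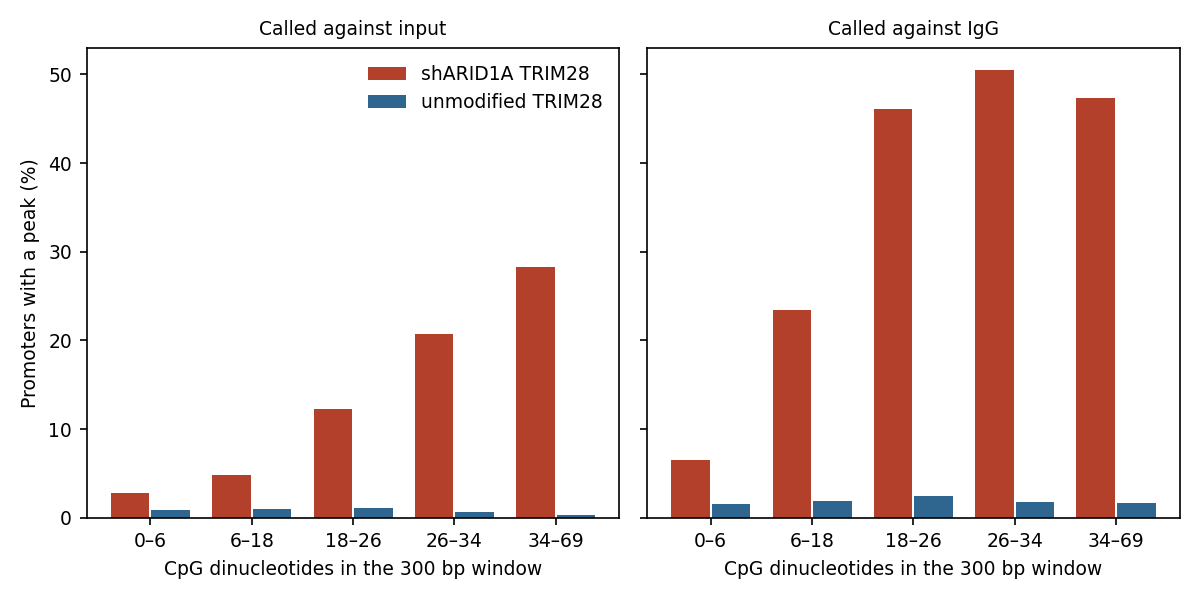
Share of protein-coding promoter windows (y axis, %) with a TRIM28 peak, by the number of CpG dinucleotides in the 300 bp window (x axis, 5 equal classes of 15811 windows), in shARID1A (red) and unmodified cells (blue), against input at left and IgG at right. The shARID1A bars climb to 28.3% against input, and every unmodified bar stays at or below 2.50%.

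The positions of the peaks were largely different in both libraries. At an overlap of at least 1 bp, 2460 of 203714 shARID1A peaks met an unmodified peak (1.21%, interval 1.16% to 1.26%), and 2411 of 32927 unmodified peaks met a shARID1A peak (7.32%, 7.04% to 7.61%). The same lists at positions shifted along the chromosomes gave medians of 0.798% and 4.90% over 200 shifts, so the observed overlap was 1.51 and 1.496 times the shifted one. Against shifts of only 20 kb, which keep the local density of peaks, the ratio for unmodified peaks was 1.32. The size of the excess changed with the control. Unmodified peaks met the shARID1A list 1.31 times as often as shifted with both lists against IgG (8.95%), 1.47 times with the shARID1A list alone against IgG (10.0%) and 1.52 times with the unmodified list alone against IgG (7.36%). With presence in both control lists required on both sides, 593 of 12628 unmodified peaks were found again (4.70%, 1.59 times shifted). The excess faded with distance: within 1 kb of a shARID1A peak lay 22.9% of unmodified peaks and 18.5% of shifted ones, and within 10 kb 78.9% and 75.4%. For comparison, unmodified peaks met the shCtrl TRIM28 list 2.55 times as often as shifted (4.68%), and shARID1A peaks met it 1.31 times as often (1.93%). Against shifts of 20 kb these ratios were 1.63 and 1.19.

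Overlap was more frequent for stronger calls. Of shARID1A peaks with a −log10 p of 5 or more, 3.60% of 3025 met an unmodified peak, 3.76 times shifted, against 1.00% of those between 2 and 3, 1.28 times shifted. Of unmodified peaks with a −log10 p of 5 or more, 33.8% of 231 met a shARID1A peak (27.7% to 40.3%), 7.09 times shifted. Against shifts of 20 kb the ratio in this top class was 2.95 for shARID1A peaks and 4.11 for unmodified peaks. Unmodified peaks between 4 and 5 were found again in 12.7% of cases (2.50 times), those between 3 and 4 in 8.46% (1.70 times), and those below 2 in 6.58% (1.35 times). Among strong peaks alone, 84 of 2119 in shARID1A met any unmodified peak against input (3.96%, 4.20 times shifted), and 238 met one against IgG (11.2%, 5.80 times). With shifts of 20 kb these ratios were 3.65 and 3.15. Of the 67 strong unmodified peaks, 32 met a shARID1A peak (47.8%, 35.4% to 60.3%) and 18 a strong one. Most of the 67, 60, lay over 100 kb from any annotated gene, so their overlap does not stand for peaks near genes.

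**Figure D2:**
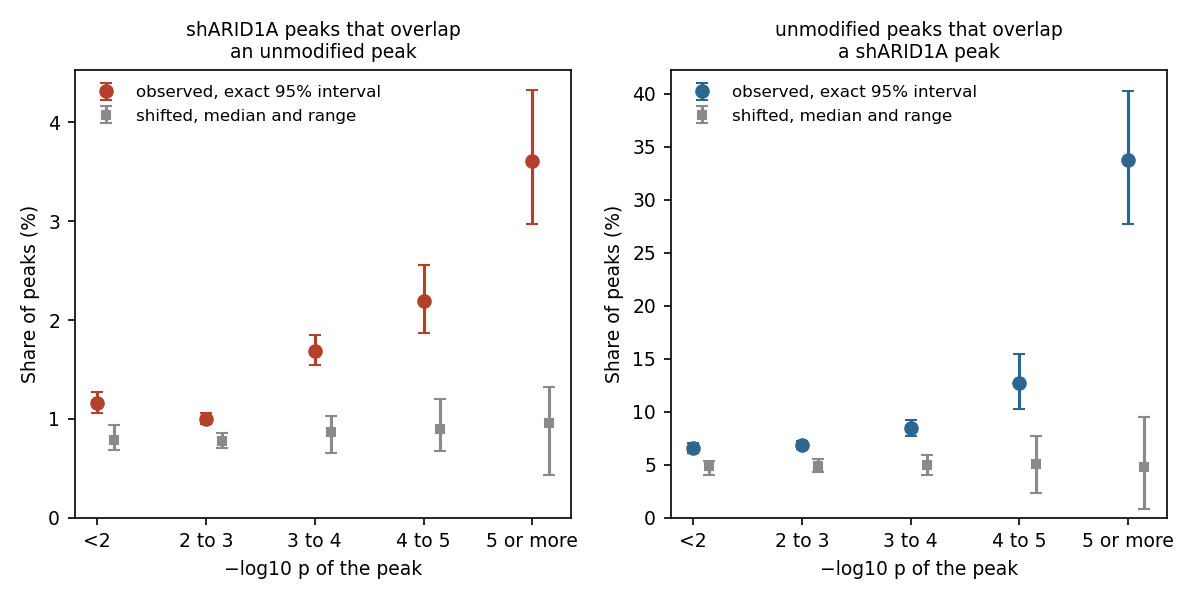
Share of TRIM28 peaks (y axis, %) that overlap a peak of the other library, by −log10 p of the peak (x axis), for shARID1A peaks at left and unmodified peaks at right; circles are observed shares with exact 95% intervals and grey squares the median and range over 200 shifts. The weakest classes sit just above the shifted squares, and the top class reaches 3.60% and 33.8%.

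Over all peaks, sites that both libraries listed met H3K9me3 and SETDB1 peaks of shARID1A cells more often than sites of 1 library. In shARID1A cells, H3K9me3 peaks against input overlapped 17.9% of the 2460 shARID1A peaks found in both lists, and 5.01% of the 197203 shARID1A peaks absent from both unmodified lists, a difference of 12.9 percentage points (11.4 to 14.5). Counted on the unmodified side, they overlapped 18.6% of 2411 peaks found in both, and 3.002% of the 28484 unmodified peaks absent from both shARID1A lists, a difference of 15.6 (14.1 to 17.2). Peaks of SETDB1, the methyltransferase, in shARID1A cells met 10.6% of sites in both and 3.22% of shARID1A sites alone. Among the 1855 strong shARID1A peaks absent from both unmodified lists, the shares were 23.1% for this H3K9me3 list and 18.9% for SETDB1. Over all 2119 strong shARID1A peaks they were 27.0% and 21.1%, so strong peaks that met an unmodified list had higher shares than strong peaks alone. Sites in both hold peaks of any strength, so their shares are not at the threshold of the strong ones. H3K9me3 of unmodified cells met 7.24% of sites in both and 0.426% of shARID1A sites alone, and on the unmodified side 8.005% and 2.44%. Lists of 1 cell state were taken to share their input, and a dip of that control can place peaks of several antibodies at 1 site. The library labelled shCtrl SETDB1 shares no control with either TRIM28 library and met 18.1% of sites in both (8.34 times shifted), 3.68% of shARID1A sites alone (1.85 times) and 6.95% of unmodified sites alone (3.03 times). Its difference between sites in both and sites alone was 14.4 percentage points on the shARID1A side (13.0 to 16.0) and 11.5 on the unmodified side (10.0 to 13.2), and 13.3 and 11.6 with its list against IgG. The library labelled shCtrl H3K9me3 met 6.22% of sites in both and 2.18% of shARID1A sites alone, but on the unmodified side 6.93% and 5.99%, a difference of 0.937 whose interval (−0.0502 to 2.05) includes 0. No value here tests the labels of these shCtrl libraries.

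**Figure D3:**
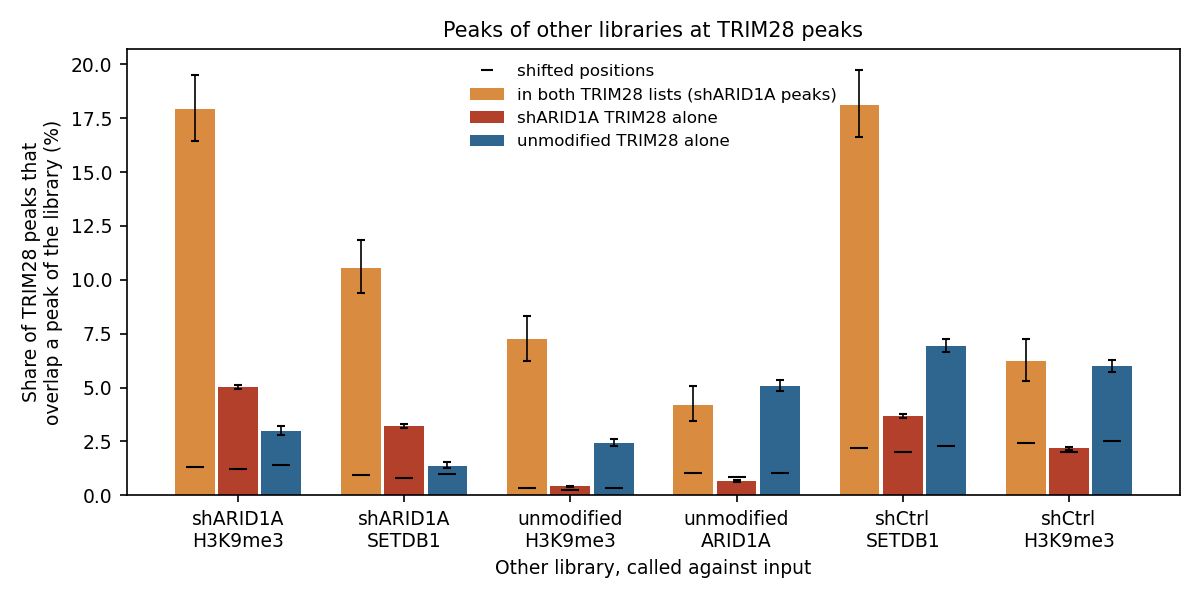
Share of TRIM28 peaks (y axis, %) that overlap an input-called peak of another library (x axis), for peaks in both TRIM28 lists (orange), shARID1A peaks alone (red) and unmodified peaks alone (blue), with exact 95% intervals; black ticks are shifted positions. H3K9me3 of shARID1A cells and the library labelled shCtrl SETDB1 met 17.9% and 18.1% of sites in both, more than of sites of 1 library, and ARID1A of unmodified cells met unmodified sites alone in 5.08% of cases and shARID1A sites alone in 0.654%.

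Whether unmodified TRIM28 peaks at ARID1A sites were found again after the knockdown more or less often than others depended on the control. Of the unmodified TRIM28 peaks, 1846 (5.61%) overlapped an ARID1A peak of unmodified cells, 5.49 times the shifted share, with both lists against the same input. Of these 6.72% met a shARID1A peak against input, and of the other 31081 peaks 7.36%, a difference of −0.641 percentage points whose interval (−1.74 to 0.626) includes 0. With the shARID1A list against IgG the shares were 18.9% at ARID1A sites and 9.52% elsewhere, a difference of 9.39 (7.63 to 11.3). With both TRIM28 lists against IgG it was 9.15 (6.58 to 12.03). With the unmodified TRIM28 list alone against IgG it was 0.208 (−1.47 to 2.31), and 2.61 (1.55 to 3.77) with the ARID1A list against IgG as well. ARID1A peaks of shCtrl cells gave −1.25 (−2.23 to −0.131) with all lists against input, 2.01 (0.793 to 3.39) with the unmodified TRIM28 list alone against IgG, and 8.87 (7.24 to 10.6) with both TRIM28 lists against IgG. The difference thus changed with the control of either TRIM28 list.

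The libraries spread differently over chromosomes. Chromosome 8 held 5.81% of the shARID1A peaks and 12.2% of the unmodified peaks against input, or 8.19 and 2.77 peaks per 100 kb bin. Against IgG the shares were 4.67% and 5.25%. Other unmodified lists against input also had a high share there, 11.96% for ARID1A and 18.2% for H3K9me3, and the part of the shared input was not tested. Chromosome X held 1.37% of the shARID1A peaks, 2794, and 0.0759% of the unmodified peaks, 25, and against IgG 1.13% and 0.223%. Chromosome 13 held 3.13% and 1.35%, chromosome 19, which has the largest zinc finger gene clusters, 2.06% and 0.747%, and chromosome 21 0.659% and 0.191%. Against IgG those 3 chromosomes held 2.71% and 2.36%, 2.36% and 2.41%, and 0.570% and 0.470%, so the difference on chromosome 19 was seen only with the input control. Over 147 stretches of 20 Mb the density per bin ran from 0.571 to 10.7 in shARID1A (median 7.15) and from 0 to 4.67 in unmodified cells (median 0.985).

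**Figure D4:**
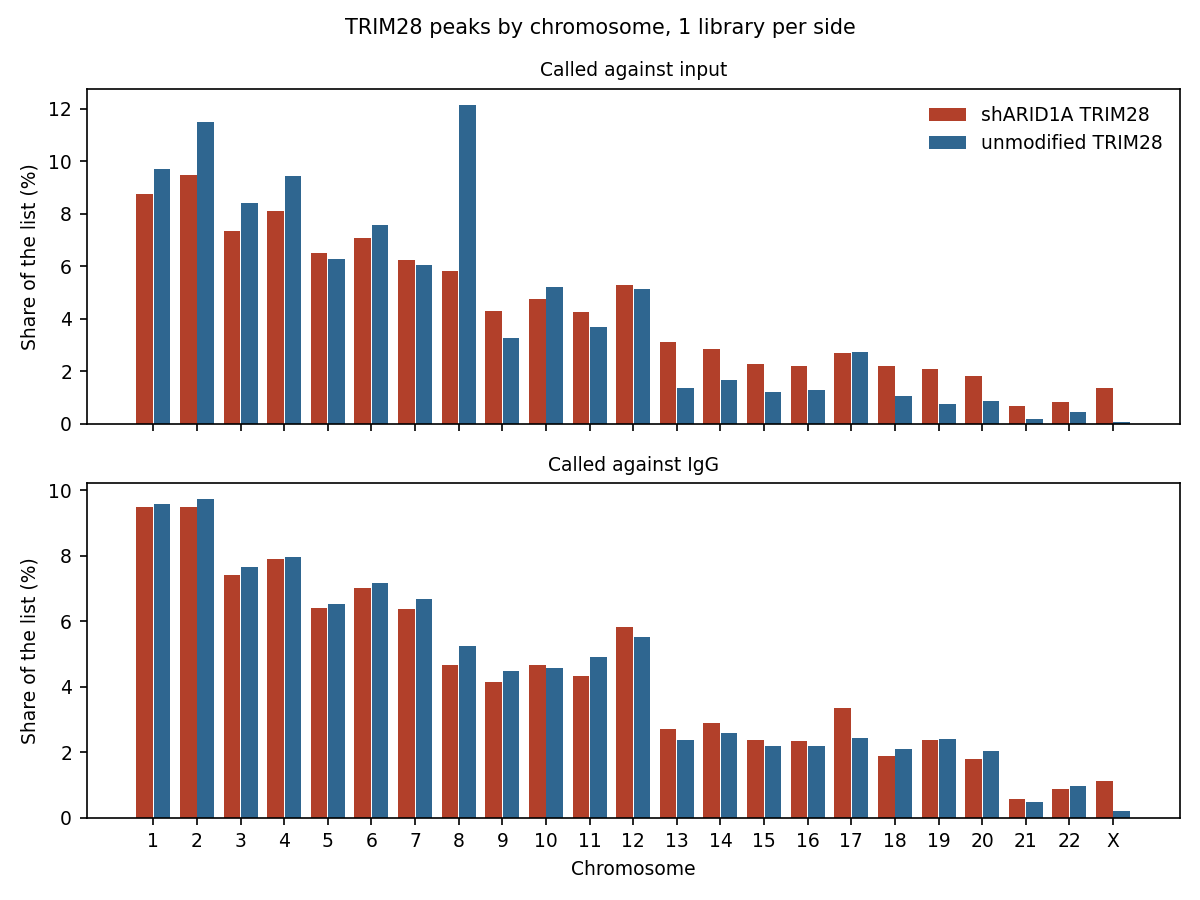
Share of each TRIM28 list (y axis, %) on each chromosome (x axis), shARID1A in red and unmodified in blue, against input (top) and IgG (bottom). Chromosome 8 stands out in the unmodified input list at 12.2% and not in the IgG list at 5.25%, and chromosome X is nearly empty in unmodified cells with either control.

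Counts per 100 kb bin were related, loosely. Of 29049 bins, 27917 held a shARID1A peak and 14932 an unmodified peak, and 86 held an unmodified peak alone. The Spearman correlation of the counts was 0.376 and the Pearson correlation 0.308 over these bins, which share mappability, copy number and base composition and are not independent. Within chromosomes the Spearman values ran from 0.00931 on X to 0.390 on chromosome 8, with a median of 0.296. The same library called against both controls gave 0.679 in shARID1A and 0.441 in unmodified cells, shARID1A and shCtrl TRIM28 gave 0.477, and unmodified and shCtrl TRIM28 0.540. Of the 5 bins with the most shARID1A peaks, 4 were zinc finger loci. The bin chr1:247100001-247200000, with ZNF669 and ZNF124, held 47 shARID1A peaks and 9 unmodified ones, and chr8:144900001-145000000, with ZNF250 and ZNF16, held 47 and 4. The bin of ZNF678 (chr1:227600001-227700000) held 44 and 7, and that of ZNF565 and ZNF146 (chr19:36200001-36300000) 44 and 0. The other of the 5 (chr1:143200001-143300000) holds no protein-coding gene and had 44 and 0. Against IgG the 4 zinc finger bins held 36 and 18, 43 and 5, 33 and 11, and 39 and 11 peaks. The bins with the most unmodified peaks were elsewhere. The bin chr8:127200001-127300000, with CCAT1, a long noncoding RNA gene known from colon cancer, held 6 shARID1A peaks and 28 unmodified ones, and chr10:112500001-112600000 in VTI1A, a vesicle fusion gene, held 4 and 28. Against IgG the order turned, with 29 and 5 in the CCAT1 bin and 35 and 7 in the VTI1A bin. ARID1A of unmodified cells against input had 46 and 47 peaks in these 2 bins.

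Over the gene bodies with 1 kb on either side, 14452 of 19970 protein-coding genes held a shARID1A peak (72.4%) and 5672 an unmodified peak (28.4%). Peaks were listed in shARID1A alone for 9198 genes (46.1%), in unmodified cells alone for 418 (2.09%) and in both for 5254, although mostly at different positions. A strong peak lay in 775 genes in shARID1A (3.88%) and in 5 in unmodified cells (0.025%). Against IgG 16648 genes had a peak in shARID1A (83.4%) and 9825 in unmodified cells (49.2%). Gene length set much of this: of 10 equal classes by length, 25.7% of the shortest genes had a shARID1A peak and 3.41% an unmodified one, and 99.5% and 79.4% of the longest. Counts for gene lists are therefore given with the peaks per Mb of gene, which over all protein-coding genes were 70.5 in shARID1A and 11.5 in unmodified cells, a ratio of 6.14.

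Zinc finger genes, whose proteins recruit TRIM28 and whose own bodies it is known to bind, were dense in shARID1A peaks. Their median length was 23351 bp on chromosome 19 and 24064 bp elsewhere, beside 24190 bp over all protein-coding genes. Of 255 on chromosome 19, 213 had a shARID1A peak and 60 an unmodified peak, at 118 and 11.4 peaks per Mb, a ratio of 10.4. Of 283 elsewhere, 246 and 102 had one, at 118 and 18.0 per Mb. Against IgG the densities were 122 and 38.5 per Mb on chromosome 19 and 149 and 34.6 elsewhere, beside 110 and 23.9 over all genes, so the higher shARID1A density on chromosome 19 was less marked with that control. Sites in both lists lay in zinc finger genes outside chromosome 19 in 1.87% of cases (1.37% to 2.49%) and shARID1A sites alone in 0.834% (0.794% to 0.875%). In zinc finger genes the last 20% of the body held 21.1% of 2072 shARID1A summits (19.4% to 22.96%) and 25.5% of 263 unmodified summits (20.3% to 31.2%). In other genes of like length it held 18.5% (17.9% to 19.1%) and 18.2% (16.7% to 19.9%). Of the 26 strong shARID1A summits in zinc finger genes, 4 lay there (15.4%, 4.36% to 34.9%). ZNF180 carried the only strong unmodified peak in a chromosome 19 zinc finger gene. Its highest fold was 3.77 against input and 4.24 against IgG in shARID1A, and 5.01 and 5.16 in unmodified cells. ZNF121 had 14 peaks with a fold of up to 4.24 in shARID1A and 7 with up to 3.60 in unmodified cells. ZNF678 had 51 peaks with up to 4.71 in shARID1A and 8 with up to 3.45 in unmodified cells.

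Over all protein-coding genes, 72.4% had a shARID1A peak and 28.4% an unmodified one, at 70.5 and 11.5 peaks per Mb. The clustered protocadherins, neuronal adhesion genes that share their 3′ exons, had a shARID1A peak in 51 of 53 members (96.2%) and an unmodified one in 32 (60.4%), at 170 and 17.1 peaks per Mb. They are long, with a median of 110198 bp. Their bodies overlap, so 1 peak counts for several members: the list held 95 distinct shARID1A peaks and 9 distinct unmodified ones. The 26 members with a strong shARID1A peak shared 3 distinct peaks. Against IgG the protocadherin densities were 150 and 50.3 peaks per Mb, beside 110 and 23.9 over all genes. PCDHGA1 held 36 shARID1A peaks with a fold of up to 5.18 and 5 unmodified peaks with up to 3.13. HOX genes, the patterning homeobox clusters, had a peak in 16 of 39 members in shARID1A (41.0%) and in 1 in unmodified cells (2.56%), at 92.2 and 5.12 peaks per Mb. Both shares were below those over all genes, and the median HOX gene length was 3785 bp. HOXA3 had 5 shARID1A peaks (fold up to 3.69) and no unmodified peak against input, and 12 and 1 against IgG. Retroviral envelope genes, remnants of the elements that TRIM28 silences, had a shARID1A peak in 7 of 8 members and an unmodified peak in none against input, at 145 and 0 peaks per Mb. Against IgG 7 and 1 had one. Their median length was 9055 bp, and in the class of all genes that holds this length 51.9% had a shARID1A peak and 8.31% an unmodified one. Among them ERVW-1, which encodes syncytin, had 4 shARID1A peaks with a fold of up to 2.82. Imprinted genes had a peak in 16 of 25 members in shARID1A (64%) and 9 in unmodified cells (36%), at 60.7 and 13.5 peaks per Mb, near the values over all genes. PHLDA2, an imprinted growth regulator, had 1 strong shARID1A peak (fold 5.18 against either control) and no unmodified peak. KCNQ1 had 28 shARID1A peaks (fold up to 3.29) and 2 unmodified peaks (up to 3.60).

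Genes of the heterochromatin machinery itself had a shARID1A peak in 26 of 30 members and an unmodified peak in 11, at 80.7 and 10.7 peaks per Mb, near the 70.5 and 11.5 over all genes. TASOR, a HUSH complex subunit, had 8 shARID1A peaks with 2 strong (fold up to 4.24) and no unmodified peak against input. ATF7IP, the partner of SETDB1, had 19 shARID1A peaks (up to 3.805) and 5 unmodified peaks (up to 3.37). SWI/SNF subunit genes had a peak in 26 of 27 members in shARID1A and in 8 in unmodified cells, at 77.0 and 9.11 per Mb. Both lists hold long genes, with median lengths of 42594.5 and 51044 bp. ARID1B, the paralogue of ARID1A, had 24 shARID1A peaks (up to 4.17) and 10 unmodified peaks (up to 2.66). Of p53 target genes 22 of 25 had a peak in shARID1A and 4 in unmodified cells, at 108 and 4.98 peaks per Mb, a ratio of 21.8. Against IgG they had 180 and 24.9 peaks per Mb. ZMAT3 had 9 shARID1A peaks (up to 3.58) and no unmodified peak against input. Interferon and RNA-sensing genes had a peak in 21 of 33 members in shARID1A and 8 in unmodified cells, at 75.6 and 13.2 per Mb, and RIGI, a cytosolic RNA sensor, had 14 peaks (up to 4.17) and 3 (up to 3.13).

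Against input the ratio of the densities was lowest for intestinal and WNT pathway genes and for histone genes. The intestinal and WNT genes had a peak in 24 of 28 members in shARID1A and 14 in unmodified cells, at 51.5 and 26.8 peaks per Mb, a ratio of 1.92 beside 6.14 over all genes. RNF43, a ubiquitin ligase that removes WNT receptors, had 1 shARID1A peak (fold 2.54) and 13 unmodified peaks (up to 3.23) against input, but 14 and 4 against IgG. CDH17, an intestinal cadherin, had 6 and 7 peaks against input, and 9 and 3 against IgG. Over the list the densities against IgG were 107 and 27.4 per Mb, beside 110 and 23.9 over all genes. Histone genes, with a median length of 494 bp, had a peak in 17 of 69 members in shARID1A and 7 in unmodified cells, at 74.4 and 35.2 per Mb, a ratio of 2.11. The histone values rest on 17 and 7 distinct peaks. Ribosomal protein genes had one in 40 and 16 of 84 members, at 81.3 and 22.04 per Mb, a ratio of 3.69. Against IgG histone genes had 462 and 74.4 peaks per Mb and ribosomal protein genes 263 and 24.8, so their low ratios were not seen with that control. Olfactory receptor genes, which encode odorant receptors, had one in 111 and 38 of 392, at 58.6 and 13.4 per Mb. In each of these 14 lists the share of members with a peak against input was higher in shARID1A than in unmodified cells, as it was over all protein-coding genes (72.4% and 28.4%).

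**Figure D5:**
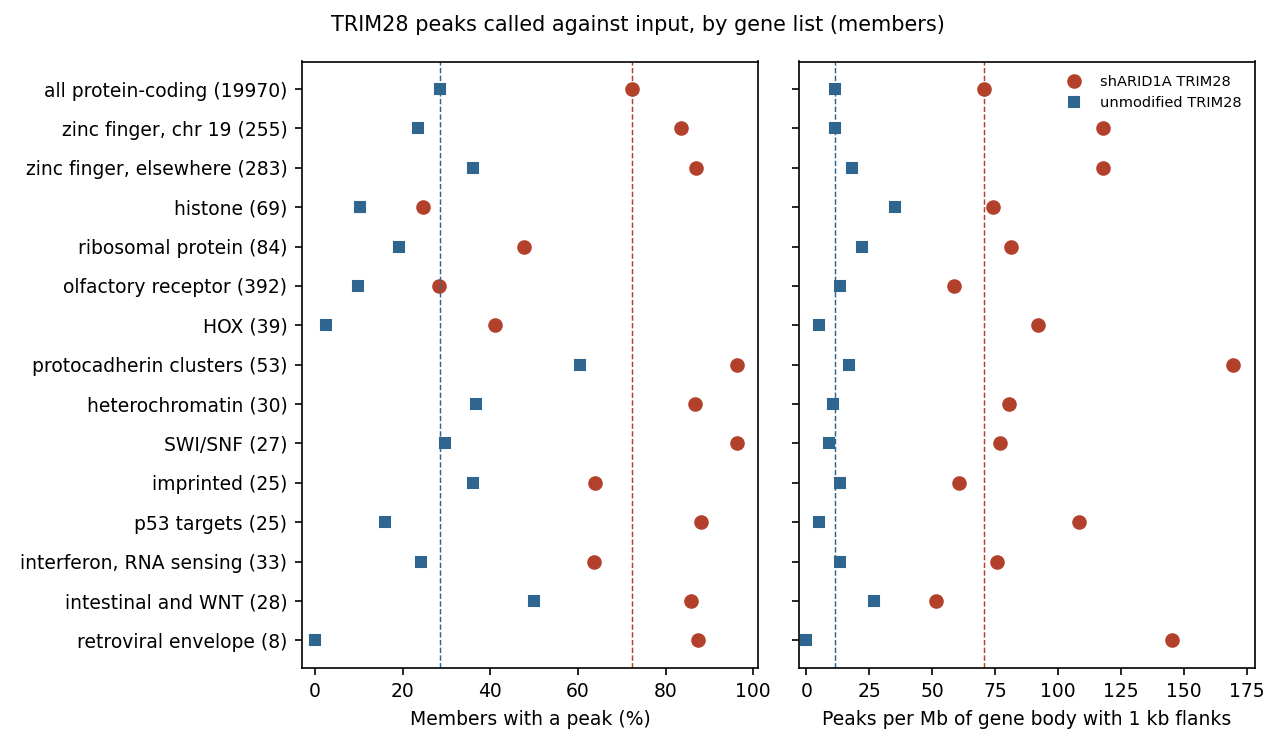
Share of members with a TRIM28 peak against input (left, %) and peaks per Mb of gene (right) for each gene list (members in brackets), shARID1A as red circles and unmodified as blue squares; dashed lines mark all protein-coding genes. Zinc finger genes stand at 118 peaks per Mb in shARID1A beside 70.5 over all genes, and intestinal and WNT genes have the closest pair of densities, 51.5 and 26.8.

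Single regions were ranked by fold. Of 1731 strong shARID1A peaks that the shARID1A IgG list also held, 1550 overlapped no peak of either unmodified list. The highest of these in a protein-coding or lncRNA gene lay in ARID1A itself (chr1:26696413-26697570), its middle 976 bp past the start site, with a fold of 10.5 against input and 15.5 against IgG. Over the whole ARID1A gene the shARID1A library had 13 peaks, 6 of them strong, and the unmodified library 2, none strong, with a fold of up to 2.43. SETDB1 of shARID1A cells also had a peak at that site, with a fold of 23.97 against input and 36.0 against IgG. ARID1A of shCtrl cells had one with a fold of 5.16 and 5.63, and ARID1A of unmodified cells had none there. The gene SETDB1 had 5 shARID1A peaks (up to 2.35) and no unmodified peak against input, and TRIM28 1 and none. Others of the 12 named lay in the UGT1A cluster of glucuronidation enzymes, whose transcripts overlap (named UGT1A4, fold 7.06), in DCP1B, an mRNA decapping factor (6.12), and in KLHL6, a ubiquitin ligase adaptor (5.70).

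In the other direction, the 10000 unmodified peaks highest by −log10 q were taken, with ties ordered by p, then fold. Since 99.3% of the unmodified list tied at the weakest q, p set the order of most of them. Of the 4562 also present in the unmodified IgG list, 3837 overlapped no shARID1A peak, and 24 of these 3837 were strong. NF1, the RAS regulator neurofibromin, led those in genes with a fold of 4.31 against input and 3.54 against IgG. FAM230E, shown above, came next, and then CPEB3, a regulator of translation, with 4.10 and 4.43. CDH13, T-cadherin, had 3.90 and 3.60. At CCAT1 (chr8:127216368-127216840) TRIM28 had a fold of 3.90 and 2.73 in unmodified cells, and ARID1A of unmodified cells 4.28 against input at the same place. At ERICH1 the unmodified fold was 3.84 and 3.91. Of the peaks named here, only that of FAM230E was strong against input, and that of CPEB3 was strong against IgG alone. At a promoter lay 15 of the 3837 (0.391%) and 136 of the 1550 regions listed in shARID1A alone (8.77%). All of the 1550 were strong and few of the 3837 were, so these shares were taken at unlike thresholds.

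Regions in all 4 lists numbered 574, of which 37 were strong in shARID1A. After GOLGA5, a protein-coding gene with a high fold was ZNF678, with 4.71 against input and 2.67 against IgG in shARID1A, and 1.62 and 3.70 in unmodified cells. GBE1, the glycogen branching enzyme, had 4.67 and 4.14 in shARID1A, and 2.43 and 2.41 in unmodified cells. LYST, a lysosomal trafficking regulator, had 4.24 and 3.87, and 2.70 and 2.86. GALNT1, which starts O-linked glycosylation, had 4.13 and 3.97, and 2.78 and 2.55, and a peak labelled shCtrl SETDB1 with a fold of 6.98 against input lay at the same site.

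Most strong peaks of unmodified cells lay far from genes. Of 67, 60 lay over 100 kb from any annotated gene (89.6%), with a median distance of 690729 bp, and so did 468 of 2119 strong shARID1A peaks (22.1%). Over all peaks the shares were 5.70% in shARID1A and 5.54% in unmodified cells. Of the 84 strong shARID1A peaks that met an unmodified peak, 37 (44.0%) lay that far from a gene. Of the 37 stretches of 1 Mb with a strong unmodified peak, 34 also held a strong shARID1A peak, and such peaks lay in 1125 stretches in all. The stretch at 59 Mb of chromosome 6 held 4 strong unmodified and 33 strong shARID1A peaks, so these regions were not particular to unmodified cells. H3K9me3 peaks of shARID1A cells met 27 of the 67 (40.3%) and those of unmodified cells 23 (34.3%). The highest, chr22:14488767-14489115, had a fold of 5.71 against input and 5.06 against IgG in unmodified cells and no shARID1A peak. A neighbour, chr22:14754881-14755312, had a fold of 3.22 against input in shARID1A, a strong peak, and 5.33 in unmodified cells.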

How the data were processed

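The ChIP-seq peak lists were the submitters' own. Per the submitters' processing notes, the tools were MACS2 2.2.7.1, Bowtie2 2.2.5, ChIPseeker, FastQC 0.11.9 and deepTools 3.5.1, on the builds hg38 and GRCh38. Options and read totals were not given in the sources used here. The control of each list was read from the name of the list, as IgG where the name says so and as input otherwise, since no sample label states it. The antibody product in the protocol differs from that in the sample characteristics, so the antibody is not settled. The deposited fold is a ratio of summit pileup to local background. The deposited −log10 p and −log10 q values come from the same peak call by the authors. Depth was estimated from fold and p as whole fragments times a scale, which explained 95.8% to 100% of 400 sampled peaks per list within 0.0005, and gave a scale of 1 in shARID1A and 0.739 (input) and 0.837 (IgG) in unmodified cells.

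Peaks on chromosomes 1 to 22 and X were used, and the lists against input were the main ones. Overlap meant at least 1 bp. Shifted shares are medians over 200 evenly spaced circular shifts along 10000 bp windows touched by any list. Bins were 100 kb, kept where any deposited list had a peak. Genes, with 1000 bp on either side, and promoter windows came from RefSeq tables (GRCh38.p14). Overlap counting was tested on simulated lists. Python 3.11.15, numpy 2.4.6, scipy 1.17.1 and pandas 2.3.3 were used.

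Named regions were the 12 with the highest fold per class, 1 per gene: strong shARID1A peaks in both shARID1A lists and neither unmodified list, unmodified peaks among the 10000 highest by −log10 q in both unmodified lists and neither shARID1A list, and shARID1A peaks in all 4 lists. Ties in −log10 q, which most unmodified peaks had, were ordered by p, then fold. In a gene list, the 3 members of highest fold per library could be named, and the 5 bins with the highest count. The members and lists were chosen with earlier results of these data known. The control, q, list length, presence in both controls, overlap, merging, bin size and gene window were varied. With 1 library per side no test between conditions was made.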

Additional observations from a re-analysis of the deposited data

Results flagged for a closer look

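Peaks on sequences other than chromosomes 1 to 22 and X were outside the comparisons and are given here as values. Against input there were 2355 such TRIM28 peaks in shARID1A (1.14% of the list, 179 of them strong) and 147 in unmodified cells (0.444%, 10 strong). Against IgG there were 2613 in shARID1A (142 strong) and 528 in unmodified cells (59 strong).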

How the results depend on the processing

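The shARID1A list was the longer one under every alternative tried that lets its length vary. The log2 ratio of peak numbers was 2.63, 4.98 for strong peaks and 3.26 for peaks in both control lists. The share of shARID1A peaks found in unmodified cells (1.21%) was 2.202% with both lists against IgG, 0.849% for strong peaks, 1.97% with lists of equal length, 0.498% with both controls, 0.780% at an overlap of 50% of the shorter peak and 1.38% after merging within 1000 bp. The share of unmodified peaks found again (7.32%) was 8.95%, 26.9%, 1.95%, 4.70%, 4.79% and 7.83% in the same order, and 10.0% with the shARID1A list alone against IgG. The ratio to shifted positions (1.496) was 1.31 against IgG, 2.23 at equal length, 1.60 at an overlap of 50% and 1.32 with shifts of 20 kb. The correlation over 100 kb bins (0.376) was 0.427 against IgG, 0.120 for strong peaks, 0.313 at equal length, 0.184 with both controls, 0.698 in 1 Mb bins and 0.0521 in 10 kb bins. Genes with a shARID1A peak alone (9198) numbered 773 for strong peaks, 3505 at equal length and 2159 for promoter windows. The difference at ARID1A sites (−0.641 percentage points) was 9.15 with both TRIM28 lists against IgG, 17.9 for strong peaks (7 at ARID1A sites, interval −11.8 to 51.3), 0.723 after merging and 9.39 with the shARID1A list alone against IgG. The cause of these shifts was not tested, except that equal length fixes the number of peaks. Leaving out chromosome 8, limiting the overlap to peaks within 100 kb of a gene, using promoter windows and calling the shARID1A list alone against IgG at ARID1A sites were chosen after seeing the data. Without chromosome 8 the log2 ratio, the share found again, the ratio to shifted positions and the correlation were 2.73, 7.25%, 1.5 and 0.370. Equal length gives no ratio of peak numbers, and strong peaks give no ratio to shifted positions, since the shifted median was 0. No paired analysis was possible because each side has 1 library and the labels carry no replicate numbers. Summits of 5 to 10 fragments leave most single peaks weak.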
